A study of Mus musculus with 10 samples.

Results

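The hepatic stellate cell and collagen genes described here are 10 genes, Col1a1, Col1a2, Col3a1, Col14a1, Dcn, Lrat, Reln, Des, Timp1 and Ecm1, out of 43629 genes counted in the livers of tumour-bearing KL mice. They were listed by name for what is known of them in stellate cells and in the matrix, with earlier results of these data already known. Livers came from 10 male KL mice, an inducible genetic model that carries floxed Lkb1 (Lkb1 flox/flox) on a line backcrossed to FVB and develops lung tumours after intranasal adenovirus carrying Cre under the CMV promoter. All 10 mice were adults when the virus was given, and both groups carry the same alleles and received the same virus, through the airway and not the liver. Cancer anorexia-cachexia syndrome (CACS) was assigned by loss from peak body weight. The 5 CACS mice (numbers 16 to 20) had lost between 29 and 33% of body weight and the 5 NCACS mice (numbers 11 to 15), which bear tumours without the syndrome, between 3 and 14%. No tumour-free liver was analysed here, so each difference is between cachectic and non-cachectic tumour-bearing mice.

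Hepatic stellate cells lie between the sinusoidal endothelium and the hepatocytes and, when quiescent, store vitamin A as retinyl esters. On activation, as in injury, they lose these stores and become contractile myofibroblasts that secrete fibrillar collagens and inhibitors of matrix breakdown. Portal fibroblasts, vascular smooth muscle cells and mesothelial cells share many of these genes, and a whole liver holds all of them. In RNA from whole liver, fewer cells of a type and less RNA per cell cannot be told apart.

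Total counts ranged from 31945328 to 38306888 in NCACS livers and from 31459179 to 40746178 in CACS livers. After a filter on low counts, which 14143 genes passed, the quasi-likelihood test of edgeR was applied to all of them with Benjamini-Hochberg adjustment. At an adjusted p under 0.05, 267 genes were higher and 271 lower in CACS livers, which is 3.8% of the genes tested. Levels are given as CPM, a gene's counts relative to the total of its library after scaling by TMM factors. All 10 members passed the filter. The labelled tissue and the stellate cells within it were visible in each library. The hepatocyte gene Alb stood at 45741 to 107315 CPM, and the stellate gene Lrat had 230 to 504 counts per liver. All 24 genes on a list of quiescent stellate markers passed the filter, which does not need counts in every liver. Among these, the glial fibrillary acidic protein gene Gfap had 11 to 42 counts per liver, and the hepatocyte growth factor gene Hgf had 75 to 237.

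The stretch around the start of transcription is shown for Col3a1 and Timp1, members with an unadjusted p under 0.05 in edgeR. Col1a2 is shown because Col1a1, the other such member, had no window. Lrat is shown as the quiescent counterpart, and Col5a3 as the collagen outside the 10 that passed the test. Each sequence runs 5′ to 3′ on the strand of the gene, from 250 bases before to 50 bases after the start, and comes from RefSeq on GRCm38.p6, which gave a window for 7 of the 10 members (none for Col1a1, Col14a1 and Dcn). Capitals mark matches, on either strand, to TATAAA (the TATA box), CCAAT (the CCAAT box), GGGCGG (the GC box), TGANTCA (an AP-1 site) or TTCNNNGAA (a STAT site), and no matches overlap in the sequences shown.
Col1a2, chr6:4505368-4505667, plus strand: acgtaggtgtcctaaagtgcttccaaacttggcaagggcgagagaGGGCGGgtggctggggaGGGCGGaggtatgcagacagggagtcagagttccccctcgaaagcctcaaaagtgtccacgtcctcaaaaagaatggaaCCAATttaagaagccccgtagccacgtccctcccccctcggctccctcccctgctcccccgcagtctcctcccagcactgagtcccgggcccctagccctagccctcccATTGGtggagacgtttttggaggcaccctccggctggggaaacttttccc
Col3a1, chr1:45311288-45311587, plus strand: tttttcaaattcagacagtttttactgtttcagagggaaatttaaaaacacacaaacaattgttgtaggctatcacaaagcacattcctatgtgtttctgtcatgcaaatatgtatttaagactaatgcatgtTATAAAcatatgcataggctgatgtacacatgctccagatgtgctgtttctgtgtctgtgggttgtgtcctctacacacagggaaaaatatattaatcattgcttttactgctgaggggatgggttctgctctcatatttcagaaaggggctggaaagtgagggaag
Timp1, chrX:20869916-20870215, plus strand: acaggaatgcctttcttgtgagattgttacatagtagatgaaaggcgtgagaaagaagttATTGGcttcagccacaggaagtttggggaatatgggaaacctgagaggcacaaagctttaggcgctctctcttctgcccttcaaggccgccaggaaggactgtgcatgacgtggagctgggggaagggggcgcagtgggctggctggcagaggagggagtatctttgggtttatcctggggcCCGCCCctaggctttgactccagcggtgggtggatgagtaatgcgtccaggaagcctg
Lrat, chr3:82903925-82904224, minus strand: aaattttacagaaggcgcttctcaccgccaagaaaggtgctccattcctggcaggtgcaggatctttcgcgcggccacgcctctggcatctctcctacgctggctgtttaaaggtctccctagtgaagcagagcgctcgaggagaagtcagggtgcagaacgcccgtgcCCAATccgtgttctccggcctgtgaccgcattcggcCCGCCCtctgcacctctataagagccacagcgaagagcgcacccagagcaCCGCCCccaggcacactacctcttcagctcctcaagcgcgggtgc
Col5a3, chr9:20815018-20815317, minus strand: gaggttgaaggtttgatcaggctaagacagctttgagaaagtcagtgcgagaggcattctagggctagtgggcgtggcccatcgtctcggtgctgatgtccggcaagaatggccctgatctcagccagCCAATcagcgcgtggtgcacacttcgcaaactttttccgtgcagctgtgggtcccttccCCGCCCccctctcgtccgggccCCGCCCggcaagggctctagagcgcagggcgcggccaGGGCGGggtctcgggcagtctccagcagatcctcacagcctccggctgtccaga

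Col1a2 held 2 CCAAT matches and 2 GGGCGG matches with a GC content of 61.0%, whereas Col3a1, its partner among the fibrillar collagens, held 1 TATAAA match and none of the others at a GC content of 37.7%. Timp1 held 1 CCAAT and 1 GGGCGG match, Lrat 1 and 2, and Col5a3 1 and 3. Of the members not printed, Reln held 6 GGGCGG matches and Des 2, and Ecm1 held 1 match each to the TATA box, the GC box and the AP-1 site. Over 32851 promoter windows of 300 bases, TATAAA occurred in 13.6%, CCAAT in 37.4%, GGGCGG in 35.7%, TGANTCA in 7.81% and TTCNNNGAA in 8.3%, and the median GC content was 52.7%. A match describes letters in a window and is not a measured binding site. TTCNNNGAA occurred in 0 of the 7 member windows.

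The fibrillar collagens and Timp1, an inhibitor of matrix breakdown, were the members with the largest differences, all with lower means in CACS livers. The quiescent stellate markers Lrat and Reln were among those with the smallest. None of these differences passed the test over all genes. With edgeR, 0 of the 10 members had an adjusted p under 0.05, with 3 (Col1a1, Col3a1 and Timp1) at an unadjusted p under 0.05, all lower in CACS livers. Among all genes tested, 10.3% were lower at that unadjusted threshold. DESeq2 and limma-voom also called 0 members. Of the 10 log2 fold changes, 6 were below 0 and 4 above, with a median of -0.28 against a median of -0.01 over all genes tested. The groups overlapped for all 10 members (0 without overlap), where 7.07% of the genes tested had no overlap.

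**Figure D1:**
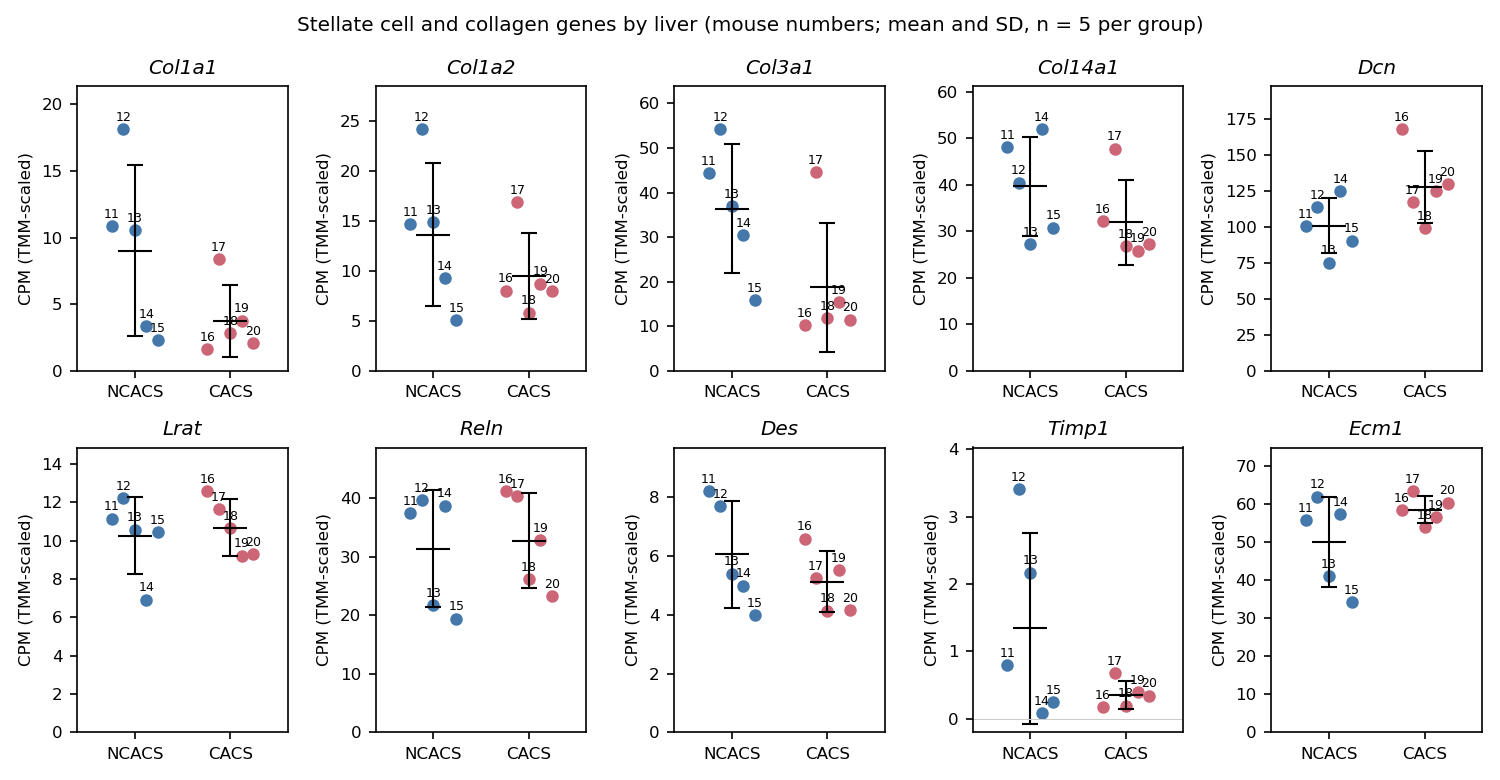
CPM of each of the 10 genes (y axis, TMM-scaled, one scale per panel) in each liver, with mouse numbers beside the points and the mean and SD of 5 livers as bars. In Col3a1, 4 CACS livers sit between 10.3 and 15.4 CPM and mouse 17 at 44.5, inside the NCACS range of 15.8 to 54.1. For Timp1 the NCACS SD is larger than the mean, so its bar reaches below 0.

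Col3a1 (ENSMUSG00000026043, chromosome 1 of GRCm38, 45311538 to 45349706, plus strand) encodes the chain of type III collagen, the fibrillar collagen of reticular fibres. Its levels were 44.4, 54.1, 36.9, 30.4 and 15.8 CPM in NCACS mice 11 to 15 and 10.3, 44.5, 11.8, 15.4 and 11.5 CPM in CACS mice 16 to 20. Apart from mouse 17, each CACS liver was below the lowest NCACS liver, and mouse 17 was level with the second highest of these. The NCACS mean was 36.3 ± 14.5 CPM and the CACS mean 18.7 ± 14.6 CPM (SD, n = 5 each). The log2 fold change, CACS minus NCACS, was -0.96 with a standard error (SE) of 0.432 (95% interval -1.90 to -0.01, unadjusted p = 0.0474, adjusted p = 0.225 with edgeR). An exact permutation test over all assignments of the livers, whose smallest p is 0.00794, gave a two-sided p of 0.0714. Without mouse 17 the log2 fold change was -1.56 with an adjusted p of 0.0251 (edgeR), and 1.91% of the 14269 genes then tested were called lower. This was the single call of a member in any fit that was run.

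Col1a1 and Col1a2 encode the α1 and α2 chains that assemble, with α1 in excess, into type I collagen, the main scar collagen. Col1a1 (ENSMUSG00000001506, chromosome 11, 94936224 to 94953042, plus strand) stood at 10.9, 18.1, 10.5, 3.34 and 2.29 CPM in NCACS mice 11 to 15 and at 1.62, 8.37, 2.84, 3.77 and 2.09 CPM in CACS mice 16 to 20. The NCACS livers fell into 3 high and 2 low ones, the low ones lying among the CACS livers, and all 5 CACS livers were below the NCACS median. Its log2 fold change was -1.27 (SE 0.574, 95% interval -2.53 to -0.02, unadjusted p = 0.0472, adjusted p = 0.225 with edgeR), with an exact permutation p of 0.127. Without mouse 17 it was -1.81 with an adjusted p of 0.0945 (edgeR), and without NCACS mouse 12 it was -0.85.

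Col1a2 (ENSMUSG00000029661, chromosome 6, 4504814 to 4541544, plus strand) stood at 14.7, 24.2, 14.9, 9.30 and 5.10 CPM in the NCACS and 8.04, 16.9, 5.84, 8.73 and 7.99 CPM in the CACS livers, in order of mouse number. Here the lowest liver of all was an NCACS liver, mouse 15, and the second highest a CACS liver, mouse 17. For CACS against NCACS it had a log2 fold change of -0.52 (SE 0.378, 95% interval -1.35 to 0.31, adjusted p = 0.455 with edgeR). It was -0.83 without mouse 17 and -0.21 without mouse 12. Mice 17 and 12 gave the extremes over fits with 1 mouse left out for both chains of type I collagen and for Col3a1.

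**Figure D2:**
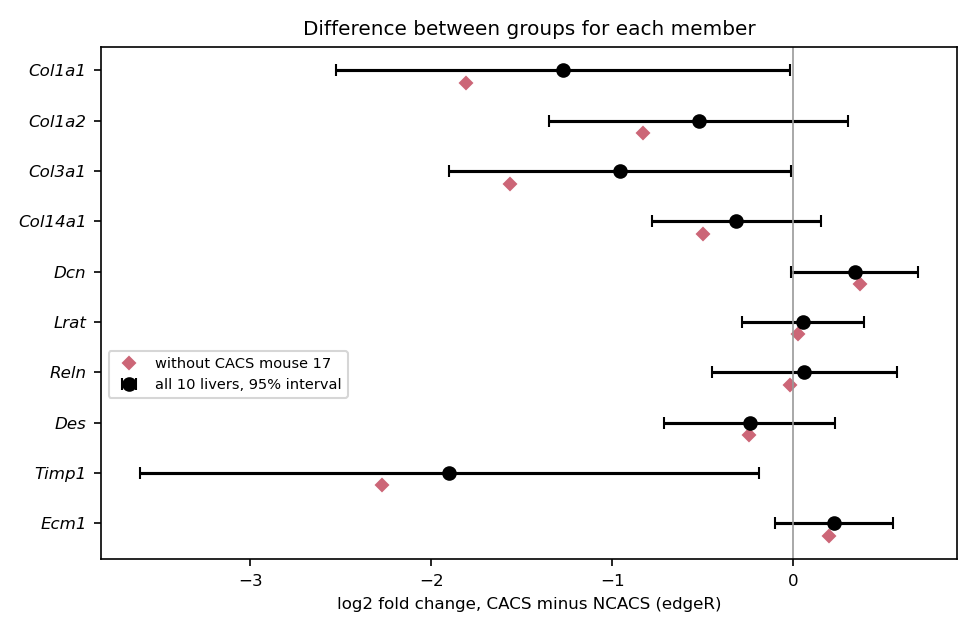
Log2 fold change of each member (x axis, CACS minus NCACS, edgeR) with its 95% interval over 10 livers in black and the value without CACS mouse 17 as a diamond. Leaving out mouse 17 moves Col1a1 from -1.27 to -1.81 and Col3a1 from -0.96 to -1.56, while Lrat and Reln stay near 0. Leaving out NCACS mouse 12, which is not plotted, moves them the other way, to -0.85 for Col1a1 and -0.77 for Col3a1.

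Timp1 (ENSMUSG00000001131, chromosome X, 20870166 to 20874735, plus strand) encodes an inhibitor of matrix metalloproteinases that activated stellate cells secrete, and it is a known target of IL-6 signalling through STAT3. It was the least abundant member in CPM, with 27, 137, 67, 3 and 8 counts in NCACS mice 11 to 15 and 7, 26, 6, 14 and 12 counts in CACS mice 16 to 20, or 0.0903 to 3.41 and 0.175 to 0.682 CPM. Mice 12 and 13 were far above all others, and the liver with the lowest value, mouse 14, was also an NCACS liver. Its log2 fold change was -1.90 (SE 0.782, 95% interval -3.61 to -0.19, unadjusted p = 0.0324, adjusted p = 0.186 with edgeR) and the exact permutation p was 0.286. The adjusted p was 0.0766 with DESeq2 and 0.525 with limma-voom, whose log2 fold change was -1.12, and without mouse 12 the edgeR value was -1.18. Timp1 lies within Syn1 on the opposite strand, a gene with at most 17 counts in a liver, and the strand setting of the counting is not given in the sources used here.

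Col14a1 and Dcn encode molecules that bind to collagen fibrils rather than form them. Col14a1 (ENSMUSG00000022371, chromosome 15, 55307750 to 55520803, plus strand), a fibril-associated collagen of stellate cells and fibroblasts, stood at 48.1, 40.5, 27.2, 51.9 and 30.8 CPM in the NCACS and 32.2, 47.7, 26.8, 25.8 and 27.2 CPM in the CACS livers. Mouse 17 was again the highest CACS liver, but mouse 14, low in Col1a1 and lowest in Timp1, was the highest NCACS liver. Its difference on the log2 scale was -0.31 (95% interval -0.78 to 0.15, adjusted p = 0.423 with edgeR).

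Dcn (ENSMUSG00000019929, chromosome 10, 97479609 to 97518143, plus strand) encodes decorin, a small leucine-rich proteoglycan that coats fibrils and binds TGF-β. It stood at 100.5, 113.4, 75.2, 124.5 and 90.4 CPM in the NCACS and 167.5, 117.1, 98.8, 124.8 and 129.4 CPM in the CACS livers. It had the largest difference above 0, with 3 CACS livers above the highest NCACS liver and 1 below the NCACS median. Its difference on the log2 scale was 0.34 (SE 0.161, 95% interval -0.01 to 0.69, unadjusted p = 0.0570, adjusted p = 0.247 with edgeR), and the exact permutation p was 0.0794. Without mouse 16, the highest liver, the log2 fold change was 0.22.

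The markers of quiescent stellate cells differed less. Lrat (ENSMUSG00000028003, chromosome 3, 82892579 to 82903973, minus strand) encodes lecithin retinol acyltransferase, which makes the retinyl esters that stellate cells store. It stood at 11.2, 12.2, 10.6, 6.93 and 10.4 CPM in the NCACS and 12.6, 11.6, 10.6, 9.21 and 9.30 CPM in the CACS livers. The 10 livers lay within a 1.82-fold range, the narrowest of the members, and the log2 fold change was 0.06 (95% interval -0.28 to 0.39, adjusted p = 0.870 with edgeR).

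Reln (ENSMUSG00000042453, chromosome 5, 21884454 to 22344702, minus strand) encodes reelin, a secreted glycoprotein that marks stellate cells within the liver. Its levels were 37.4, 39.6, 21.7, 38.7 and 19.4 CPM in the NCACS and 41.2, 40.3, 26.2, 32.8 and 23.3 CPM in the CACS livers, a wide spread within each group around similar means. The log2 fold change was 0.06 (95% interval -0.45 to 0.57, adjusted p = 0.908 with edgeR). The direction of Lrat turned in 2 and that of Reln in 4 of the 10 fits with 1 mouse left out.

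Des (ENSMUSG00000026208, chromosome 1, 75360329 to 75368579, plus strand) encodes desmin, the intermediate filament of stellate cells in rodents and of smooth and skeletal muscle. It stood at 8.22, 7.69, 5.40, 5.0 and 3.98 CPM in the NCACS and 6.60, 5.25, 4.14, 5.52 and 4.15 CPM in the CACS livers, with 2 NCACS livers above the rest. Its difference on the log2 scale was -0.24 (95% interval -0.71 to 0.23, adjusted p = 0.560 with edgeR). Ecm1 (ENSMUSG00000028108, chromosome 3, 95734147 to 95739569, minus strand) encodes a secreted matrix glycoprotein. It stood at 55.8, 62.0, 41.04, 57.3 and 34.2 CPM in the NCACS and 58.5, 63.5, 53.9, 56.7 and 60.4 CPM in the CACS livers. The CACS livers lay closer together, with a coefficient of variation of 6.19% against 23.6% in NCACS livers, and the log2 fold change was 0.23 (95% interval -0.10 to 0.55, adjusted p = 0.406 with edgeR).

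Across the 10 livers, the fold from the lowest to the highest level was 37.8 for Timp1, 11.2 for Col1a1, 5.25 for Col3a1 and 4.74 for Col1a2, and between 1.82 and 2.23 for the other 6 members. Much of this spread was within groups and recurred in particular livers. Mouse 12 was the highest NCACS liver in 7 of the 10 members and mouse 15 the lowest in 6. Among CACS livers, mouse 17 was the highest in 6 and mouse 16 in 4. Such counts over all genes tested are not given here, so the recurrence is not shown to be particular to the members. The livers that were high in collagens were not uniformly high in the others: mouse 16, the lowest CACS liver for Col1a1 and Col3a1, was the highest for Dcn, Lrat, Reln and Des.

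**Figure D3:**
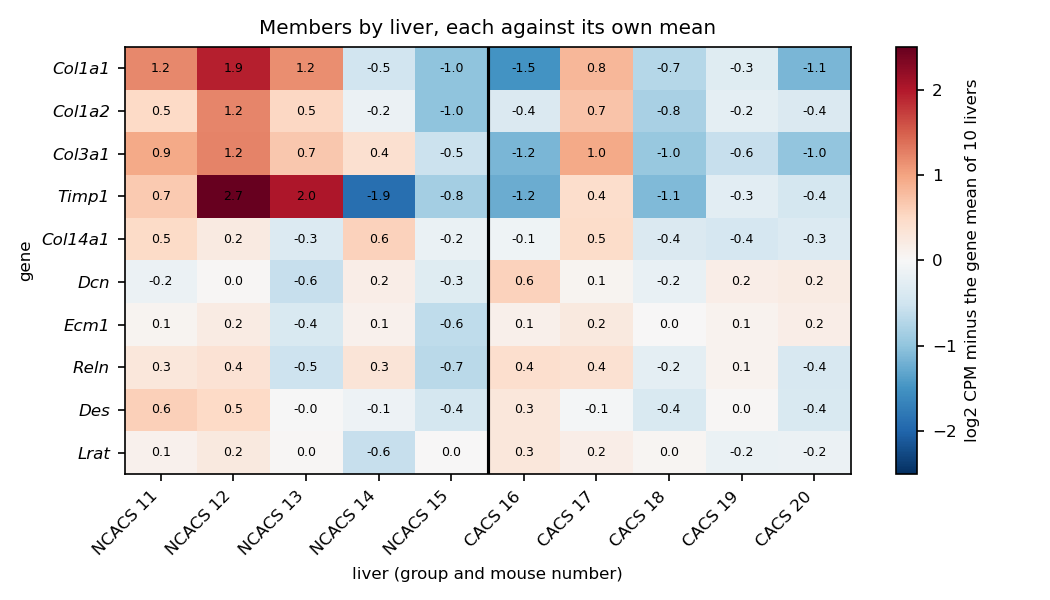
Each cell gives the log2 CPM of a member (row) in a liver (column) minus that gene's mean over 10 livers, in red above and blue below the mean, with NCACS livers left of the line. NCACS mice 11 to 13 and CACS mouse 17 are above the mean for Col1a1, Col1a2, Col3a1 and Timp1, and the rows from Dcn to Lrat hold smaller deviations.

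Within groups, the mean deviation of Col1a1, Col1a2 and Col3a1 went with that of Timp1 (Pearson's r = 0.799 over 10 livers), Des (0.608), Ecm1 (0.603), Reln (0.521), Col14a1 (0.444) and Lrat (0.387), but hardly with Dcn (r = -0.09). These coefficients describe log2 CPM after the group mean was removed, and the livers share a library for all genes, so no p is given. Among genes outside the 10 with a mean of at least 1 CPM, those most like the collagen trio were Etl4 (r = 0.944), Rdh9 (0.936), the type VI collagen gene Col6a2 (0.924), Scamp5 (0.923) and the procollagen N-propeptidase gene Adamts2 (0.913). Those most like the mean deviation of Lrat, Reln and Des were Paqr3 (r = 0.970), the mesothelial marker Lrrn4 (0.926), Zfp609 (0.921), 1810055G02Rik (0.915) and the parathyroid hormone receptor gene Pth1r (0.913). Within this trio, Des went with the mean at r = 0.957, Reln at 0.859 and Lrat at 0.570. The mean includes each of these genes, which raises their r. Col1a2 at 0.705 and Ecm1 at 0.670 are not part of the mean, so their values are not directly comparable. All genes named here as most like a trio were picked as the highest of a ranking over 10 livers, so the size of r shows no link.

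Levels of different genes were compared per kilobase of the principal transcript. In NCACS livers, the mean level was 57.3 CPM per kb for Dcn, 26.4 for Ecm1, 6.99 for Col14a1, 6.53 for Col3a1, 2.68 for Reln, 2.55 for Col1a2, 2.0 for Des, 1.92 for Lrat, 1.52 for Col1a1 and 1.52 for Timp1. In this order Dcn did not overlap with Ecm1, nor Ecm1 with Col14a1, in the range of the 5 livers, and each later pair of neighbours did. This order depends on the length used, for Dcn and Ecm1 and also for Reln and Col1a2. The principal transcript has 1758 bases for Dcn and 1900 for Ecm1, and all exons merged have 5838 and 2521. For Reln and Col1a2 the principal transcript has 11699 and 5348 bases, and all exons merged have 23738 and 12426. Per kb of merged exons, Reln and Col1a2 would stand below Lrat, Des and Timp1. Per kb, RNA of the fibril-coating proteoglycan was far above RNA of the fibrillar chains it binds. No protein was measured. The ratio of Dcn to Col1a1 per kb was between 21.1 and 133 in NCACS livers and between 47.2 and 348 in CACS livers.

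The ratio of Col1a1 to Col1a2 per kb was 0.667, 0.676, 0.639, 0.324 and 0.404 in NCACS mice 11 to 15 and 0.182, 0.447, 0.438, 0.390 and 0.236 in CACS mice 16 to 20. Its size depends on the length used, with 5930 and 5348 bases in the principal transcripts and 6563 and 12426 in all exons merged. Merged exons would raise it by the same factor in every liver, so only the comparison between livers is read here. The 3 NCACS livers with high collagen levels were above all CACS livers and the other 2 were within their range. Mouse 17, whose collagen levels were within the NCACS range, had a ratio below those 3 livers and the highest of the CACS livers. The summed level of Col1a1, Col1a2 and Col3a1 relative to that of Lrat, Reln and Des ran from 0.849 to 2.11 in NCACS livers (median 1.57) and from 0.451 to 1.71 in CACS livers (median 0.768), and 4 CACS livers were below the lowest NCACS liver. The ratio of Col3a1 to Col1a1 ran from 3.18 to 9.71 and from 4.33 to 6.77. These ratios are given as a description with no test.

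**Figure D4:**
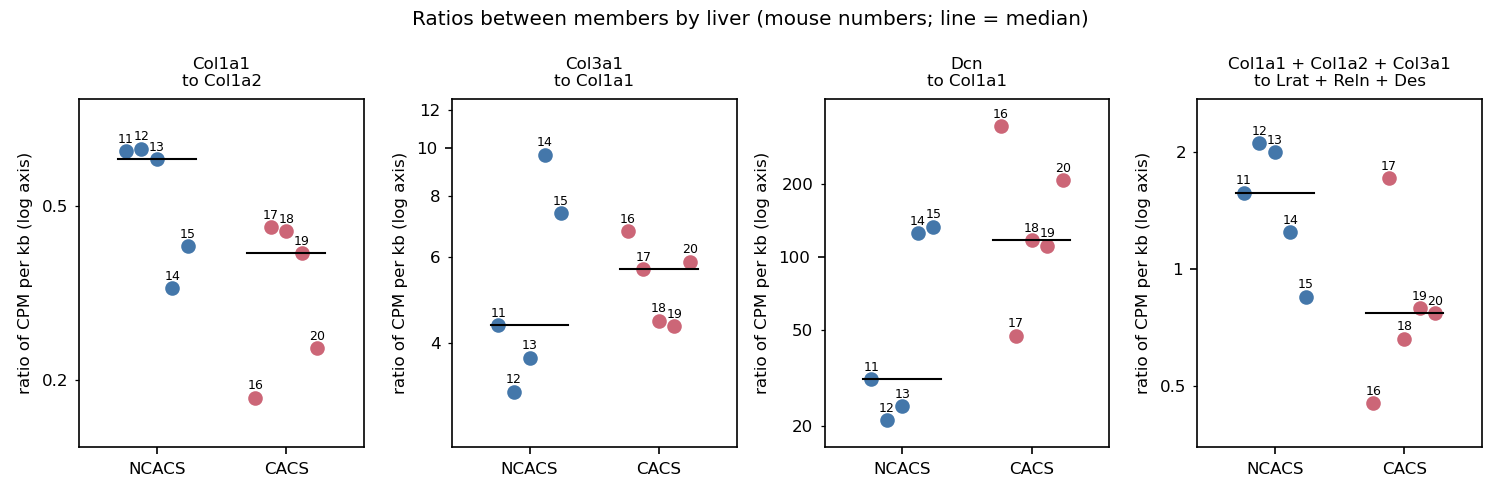
Ratios of CPM per kb between members in each liver (y axis, log scale, one per panel), with mouse numbers and a line at the median of 5 livers. For Col1a1 to Col1a2, NCACS mice 11, 12 and 13 sit at 0.639 to 0.676 above all 5 CACS livers, and mice 14 and 15 among them.

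The members were set against 11 companion lists of genes of the same cells and pathways, with 227 of 263 genes tested. Of these, 2 were called higher and 3 lower in CACS livers (edgeR, adjusted p under 0.05), or 2.2% against 3.8% of all genes tested. DESeq2 called 12 of them and limma-voom 6. The largest fold change among the 5 edgeR calls was that of another collagen. Col5a3, the α3 chain of the fibril-regulating type V collagen, stood at 17.9, 19.02, 63.8, 10.1 and 26.7 CPM in the NCACS and 6.42, 6.74, 3.43, 5.72 and 3.87 CPM in the CACS livers. Every CACS liver was below every NCACS liver, mouse 17 included. Its log2 fold change was -2.39 (SE 0.437, adjusted p = 0.0210 with edgeR), and the call held in 10 of 10 fits with 1 mouse left out. Among the 17 other collagens tested, 13 had a log2 fold change below 0 and 1 was called, with a median of -0.14. The next smallest p belonged to the network collagen gene Col8a1 (-1.49, adjusted p = 0.128 with edgeR), with 2 to 32 counts per liver.

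Of the markers of activated stellate cells, 19 of 21 tested genes were below 0, with a median log2 fold change of -0.44, where 50.6% of all genes tested were below 0. The call among them was Lgals1, encoding the β-galactoside-binding lectin galectin-1, which was lower at 3.60 to 7.61 CPM in CACS against 8.89 to 21.6 CPM in NCACS livers, with no overlap. Its log2 fold change was -1.25 (adjusted p = 0.0359 with edgeR), and it was called in 2 of 10 fits with 1 mouse left out, those without NCACS mouse 15 and without CACS mouse 17. The calcium-binding protein gene S100a6 stood at -1.17 on the log2 scale (adjusted p = 0.0980 with edgeR and 0.0208 with DESeq2). The smooth muscle actin gene Acta2, the usual marker of the myofibroblast, stood at -0.46 (adjusted p = 0.698 with edgeR). Of the quiescent stellate markers, 15 of 24 were above 0 and 0 were called by edgeR, DESeq2 or limma-voom, with 1 at an unadjusted p under 0.05 in edgeR and a median of 0.06. The smallest p values were those of the peptide receptor gene Vipr1 (0.49, adjusted p = 0.232 with edgeR) and the neurotrophin receptor gene Ngfr (-0.70, adjusted p = 0.267). No test compared one list with the other.

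**Figure D5:**
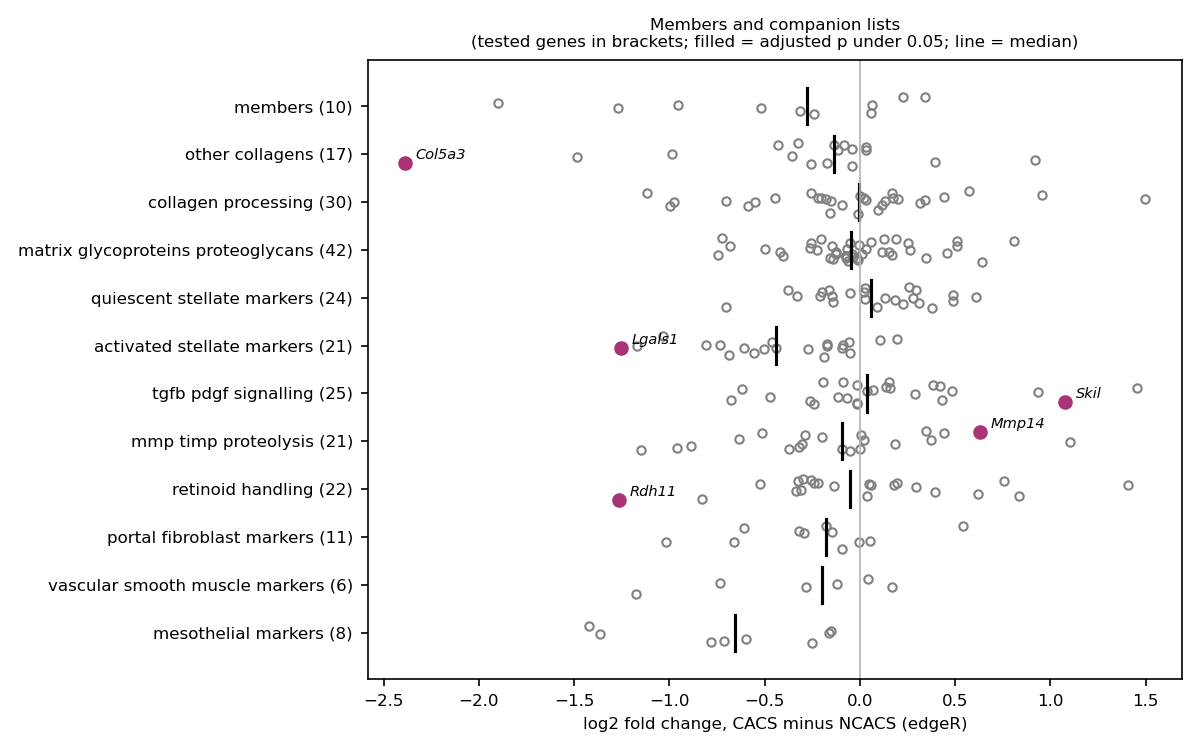
Log2 fold change (x axis, CACS minus NCACS, edgeR) of each tested member and companion gene (circles, scattered vertically within a list for legibility), with filled circles for an adjusted p under 0.05 and a bar at the list's median. The medians are -0.44 for activated and 0.06 for quiescent stellate markers, and the 5 filled circles are Col5a3, Lgals1, Skil, Mmp14 and Rdh11.

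Collagen processing and breakdown gave 1 edgeR call. Of 30 genes that modify, cross-link or cleave procollagen, 15 were below 0 and edgeR called 0 (6 at an unadjusted p under 0.05). The smallest p values were those of the enhancer of procollagen C-proteinase Pcolce2 (-0.997, adjusted p = 0.0628 with edgeR) and the proteinase itself, Bmp1 (0.34, adjusted p = 0.131). Pcolce2 had no overlap between groups, DESeq2 (adjusted p = 0.00847) and limma-voom called it, and edgeR called it in 1 of 10 fits with 1 mouse left out. Of 21 proteinases and inhibitors, 1 was called: Mmp14, a membrane-bound metalloproteinase that cleaves fibrillar collagen, was higher at 44.2 to 64.5 CPM in CACS against 29.4 to 42.1 CPM in NCACS livers (log2 fold change 0.63, adjusted p = 0.0359 with edgeR). This call held in 2 of 10 fits with 1 mouse left out, without NCACS mouse 13 and without CACS mouse 17. Mmp19 had the next smallest p (-0.30, adjusted p = 0.109 with edgeR), and 12 of the 21 were below 0, with a median of -0.10.

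Of 42 matrix glycoproteins and proteoglycans, 26 were below 0 and edgeR called 0 (3 at an unadjusted p under 0.05), with a median of -0.05. The laminin chain gene Lama5 was at 0.64 (adjusted p = 0.111 with edgeR and 0.0498 with DESeq2, and an edgeR call in 1 of 10 fits with 1 mouse left out), and the fibulin gene Efemp1 at -0.75 (adjusted p = 0.195 with edgeR). Limma-voom called 0 of the 42. Of 25 genes of TGF-β and PDGF signalling, which drive activation and collagen synthesis, 12 were below 0 and the median was 0.04. The call was Skil, encoding SnoN, a SMAD-binding repressor that TGF-β signalling itself induces. It was higher at 11.4 to 23.6 CPM in CACS against 6.56 to 13.3 CPM in NCACS livers (log2 fold change 1.08, adjusted p = 0.0311 with edgeR), and was called in 3 of 10 fits with 1 mouse left out, without NCACS mouse 15, CACS mouse 17 or CACS mouse 20. Its relative Ski was at 0.38 on the log2 scale (adjusted p = 0.108 with edgeR).

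Retinoid handling, the other trade of the stellate cell, is shared with hepatocytes. Of 22 genes, 11 were below 0, the median was -0.05 and edgeR called 1 and DESeq2 4. Rdh11, a retinal reductase found in many cell types, was lower at 20.7 to 40.999 CPM in CACS against 59.7 to 91.2 CPM in NCACS livers, with no overlap (log2 fold change -1.26, adjusted p = 0.0110 with edgeR) and a call in 10 of 10 fits with 1 mouse left out. Dgat1, which can esterify retinol besides making triglycerides, had no overlap in the other direction (0.40), but its adjusted p was 0.0713 with edgeR and 0.0346 with DESeq2. Lrat, the stellate esterifying enzyme, is described above at 0.06.

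Other cells that make collagen, or that carry the same markers, were counted as well. Portal fibroblast markers were below 0 in 9 of 11 (median -0.18), among them Thy1 (-0.32, adjusted p = 0.598 with edgeR), Il18r1 (-1.02, adjusted p = 0.0916) and Ly6a (-0.66, adjusted p = 0.177). Vascular smooth muscle markers were below 0 in 4 of 6 (median -0.20), with the smooth muscle myosin gene Myh11 at 0.04 (adjusted p = 0.960 with edgeR), Ckb at -0.73 (adjusted p = 0.133) and Synpo2 at -1.18 (adjusted p = 0.221). Mesothelial markers were below 0 in 8 of 8 (median -0.66), with Msln at -0.25 (adjusted p = 0.775 with edgeR), Lrrn4 at -1.36 (adjusted p = 0.107) and Upk1b at -1.42 (adjusted p = 0.215). In edgeR's test 0 genes of these 3 lists were called, with 2 in each at an unadjusted p under 0.05, and limma-voom called 0 and DESeq2 1 (Lrrn4, adjusted p = 0.0308). Their summed levels ran from 130.3 to 193 CPM in the NCACS and 127 to 159 in CACS livers for portal fibroblasts, 88.9 to 131 and 89.8 to 148 for smooth muscle, and 146 to 302 and 92.1 to 283 for mesothelium.

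Markers of cells that are not collagen producers in the liver were counted beside these. Skeletal muscle markers, which matter for Des, were below 0 in 9 of 9 (median -1.28, 6 at an unadjusted p under 0.05, 0 called by edgeR, DESeq2 or limma-voom), with summed levels of 29.9 to 148 CPM in the NCACS and 11.9 to 54.3 CPM in the CACS livers, and Ckm (muscle creatine kinase) at -1.33 (adjusted p = 0.210 with edgeR). Ckm was highest in mouse 11 at 13.2 CPM among NCACS and mouse 16 at 4.85 CPM among CACS livers, which were also the highest for Des. Kupffer cell markers were below 0 in 10 of 10 (median -0.60, 5 at an unadjusted p under 0.05, summed 214 to 377 and 137 to 286 CPM), with Clec4f at -0.11 (adjusted p = 0.782 with edgeR). Of these, edgeR called 2 lower, Cd5l in 2 and Folr2 in 1 of 10 fits with 1 mouse left out, and DESeq2 called 4. Leukocyte markers were below 0 in 11 of 11 (median -1.03, 7 at an unadjusted p under 0.05, 0 called by edgeR and limma-voom and 3 by DESeq2, summed 16.9 to 49.9 and 11.4 to 27.1 CPM), with Ptprc at -0.68 (adjusted p = 0.171 with edgeR). The medians of these 3 lists and of the mesothelial list were further below 0 than that of the activated stellate markers.

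Hepatocyte markers were above 0 in 7 of 9 with 1 called higher (Hnf4a, called in 1 of 10 fits with 1 mouse left out, median 0.35, 82133 to 129623 and 122230 to 148533 CPM), with Alb at 0.44 (adjusted p = 0.290 with edgeR). Sinusoidal endothelial markers were above 0 in 9 of 12 (median 0.16, 271 to 419 and 334 to 414 CPM), with Stab1 at 0.18 (adjusted p = 0.550 with edgeR). Cholangiocyte markers were below 0 in 6 of 8 (median -0.20, 108 to 131 and 91.2 to 133 CPM), with Krt7 at -1.24 (adjusted p = 0.146 with edgeR). Of the 8 genes of a pancreas and adipose list, 3 were tested and 1 was below 0 and called (42.8 to 57.4 and 12.7 to 29.0 CPM), and the pancreatic trypsinogen gene Prss2 had at most 1 count. The part of these shifts in the values of the members was not tested.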

How the data were processed

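Poly(A) RNA from the livers of 10 male KL mice was sequenced as single-end reads from stranded libraries. The authors aligned the reads to GRCm38 (STAR 2.4.1d and HTSeq 0.6.1 are named in the submitters' processing notes) and deposited raw counts per Ensembl gene, without normalization. The annotation release and strand setting are not given in the sources used here, so antisense and overlapping genes are uncertain. Groups, mouse numbers and weight changes came from the labels, which name no batch. The full genotype of the mice is not reported here. Of 43629 identifiers, 1081 had no entry in GENCODE M21, which gave symbols, coordinates and transcript lengths, and 2 listed genes had no identifier. The table had 0 unused columns.

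For the main test, edgeR 4.0.16 in R 4.3.3 was run on these deposited counts with filterByExpr by group, TMM factors and the quasi-likelihood test, at a Benjamini-Hochberg adjusted p under 0.05. A prior count of 2 was added for log2 CPM, and levels per kb the longest principal transcript. Single members were also tested by a two-sided exact permutation. The p-values set the difference between groups against the spread between mice within groups. No pair of livers within a group was a duplicate (chi-square divided by degrees of freedom of at least 46.1). The scripts were tested on simulated data.

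The members and the gene lists were chosen with earlier results of these data known. Named genes were the members, in each companion list the genes past the threshold and the 2 smallest p-values, the first gene of each list of another cell type, and the 5 genes most like each trio. Gfap, Hgf, Acta2, Cd5l, Folr2, Hnf4a and Cela1 were named after their values were seen. Alternatives were RLE and upper-quartile factors, raw totals, other filters, a robust fit, DESeq2 1.42.0, limma-voom (limma 3.58.1) and leaving out each mouse.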

Additional observations from a re-analysis of the deposited data

Results flagged for a closer look

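Within each group of 5 livers, the gap between the most extreme liver and its neighbour was divided by the group's range. Of 28 combinations of gene or ratio and group examined, 2 exceeded Dixon's critical value of 0.71 for 5 samples, and chance alone passes about 1 in 20. For Col3a1 on the log2 CPM scale, CACS mouse 17 was the highest with a value of 0.729, and the fold change with and without this mouse is given beside that gene. For Lrat, NCACS mouse 14 was the lowest with a value of 0.722. Without mouse 14 the log2 fold change of Lrat was -0.05, against 0.06 with all livers.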

How the results depend on the processing

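Under the 8 other settings of normalization, filter and test, the log2 fold change of each member kept its direction and 0 members were called, though Timp1 did not pass the filter of at least 10 counts in every liver. Over the 10 fits that leave out a mouse, the number of members called ran from 0 to 1. The log2 fold change of Lrat was then below 0 without NCACS mouse 14 (-0.0545) and CACS mouse 16 (-0.01), and that of Reln without NCACS mice 13 (-0.04) and 15 (-0.0653) and CACS mice 16 (-0.03) and 17 (-0.02). Ranges over these fits were -1.81 to -0.85 for Col1a1, -0.83 to -0.21 for Col1a2, -1.56 to -0.77 for Col3a1, -2.27 to -1.18 for Timp1, -0.50 to -0.20 for Col14a1, 0.22 to 0.43 for Dcn, -0.05 to 0.13 for Lrat, -0.07 to 0.16 for Reln, -0.35 to -0.10 for Des and 0.12 to 0.32 for Ecm1. The number of genes called was 538 (267 higher, 271 lower). DESeq2 called 1376 (655 higher, 721 lower), and with no filter 173 were higher. With 1 mouse left out the number ran from 178 to 519 (79 to 246 higher, 96 to 273 lower), and it stayed within 1.5 times of 538 without CACS mice 17 or 18 and fell further without each of the other 8. Lgals1 lost its call with raw totals (adjusted p = 0.0514 with edgeR) and Hnf4a with no filter (adjusted p = 0.0763). The cause was not tested. No paired analysis was possible because no replicate number occurs in both groups. Counting error limits Timp1, with as few as 3 counts in a liver, more than Dcn, with at least 2325.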

Other observations

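Genes called among the markers of other cells were chosen after their values were seen. They were Cd5l (log2 fold change -0.90, adjusted p = 0.0374 with edgeR) and Folr2 (-1.05, adjusted p = 0.0409) among 10 Kupffer cell markers, and the hepatocyte transcription factor gene Hnf4a (0.50, adjusted p = 0.0435). From the pancreas and adipose list, the elastase gene Cela1 was called (-1.54, adjusted p = 0.0110 with edgeR). With 1 mouse left out, Cd5l was called in 2, Folr2 in 1, Hnf4a in 1 and Cela1 in 10 of 10 fits. CACS mouse 17, the CACS liver with the highest collagen levels, had the lowest level of Cd5l (27.4 CPM), Folr2 (1.91 CPM), Clec4f (37.98 CPM) and Ptprc (4.01 CPM) among the 10 livers. Cd5l encodes a secreted scavenger receptor-like protein of macrophages, and Folr2 a folate receptor of resident macrophages.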
